A study of Mus musculus with 12 samples.

Results

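The genes described here encode the sugar and lactate transporters, the enzymes of glycolysis, the kinases that regulate it, and the enzymes of the pentose phosphate pathway. Rows of the count table carrying 36 symbols were looked up, and those averaging 1 CPM (the unit of counts scaled to libraries of equal size) or more over the 12 libraries were kept, which gave 34 of the 31301 genes in the table. Eno2 (mean 0.0938 CPM) and Ldhb (0.278 CPM) lay below the limit, and the members closest above it were Eno3 (2.29 CPM) and Pdk2 (2.4 CPM). All 34 passed the filter on low counts. The study compared basophils of 2 stages grown with 2 cytokines, to place TSLP-elicited basophils relative to the immature and mature stages. Marrow cells from C57BL/6J mice, all wild type, were grown for 7 days in IL-3 at 0.3 ng/mL or TSLP at 1 µg/mL, the dose of the treatment protocol (the labels give the TSLP dose in another unit elsewhere). From each culture of bone marrow-derived basophils (BMBAs), cells with high FcεRIα and low CD49b (immature, the pre-basophils of the study) and cells with low FcεRIα and high CD49b (mature) were sorted, and polyadenylated RNA was sequenced. Each of the 4 groups, written IL-3 immature or mature and TSLP immature or mature, holds 3 libraries. All groups share the genotype and the tissue of origin, and cells grown in culture stand in for basophils of the animal. The 3 libraries of a group come from 3 cultures, so p values measure the spread between cultures. Whether the cultures came from separate mice, and whether both stages were sorted from the same culture, is not stated in the sources used here.

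Glycolysis splits glucose into pyruvate. Its upper steps use ATP to phosphorylate the sugar and cut it into 2 triose phosphates, and its lower steps return ATP and NADH. Lactate dehydrogenase regenerates NAD from pyruvate, and the lactate leaves through monocarboxylate transporters. The pentose phosphate pathway branches off after hexokinase: its oxidative arm yields NADPH, and its non-oxidative arm exchanges sugars between ribose phosphate, the building block of nucleotides, and glycolytic intermediates. In immune cells both routes are known to be used heavily by cells that divide or are activated, and several of the genes are known targets of the hypoxia-inducible factor (HIF) and of Myc.

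The core of the DNA motif bound by HIF is ACGTG. The promoters of 4 members that carry it are shown because their genes turn up in the comparisons that follow: the pair of lactate transporters, 1 of which fell with maturation while the other rose, and 2 enzymes of the lower steps. Each stretch runs from 250 bases before to 50 bases after the annotated start, from RefSeq on GRCm38.p6, on the plus strand and 5′ to 3′. Capitals mark ACGTG read on either strand.
Slc16a1 (chr3:104638414-104638713): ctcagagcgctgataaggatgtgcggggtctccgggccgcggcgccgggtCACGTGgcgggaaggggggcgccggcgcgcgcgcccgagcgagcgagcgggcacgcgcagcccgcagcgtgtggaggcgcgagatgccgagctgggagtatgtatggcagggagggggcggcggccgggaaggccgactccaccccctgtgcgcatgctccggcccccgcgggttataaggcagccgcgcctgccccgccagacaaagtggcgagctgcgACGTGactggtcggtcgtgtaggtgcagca
Slc16a3 (chr11:120948817-120949116): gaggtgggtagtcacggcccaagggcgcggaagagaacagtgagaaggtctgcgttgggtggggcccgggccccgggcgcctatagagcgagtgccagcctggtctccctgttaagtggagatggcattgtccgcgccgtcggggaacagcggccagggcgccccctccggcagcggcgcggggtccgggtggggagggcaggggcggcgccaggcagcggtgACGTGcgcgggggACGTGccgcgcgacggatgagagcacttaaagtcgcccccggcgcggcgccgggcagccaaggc
Pgk1 (chrX:106186850-106187149): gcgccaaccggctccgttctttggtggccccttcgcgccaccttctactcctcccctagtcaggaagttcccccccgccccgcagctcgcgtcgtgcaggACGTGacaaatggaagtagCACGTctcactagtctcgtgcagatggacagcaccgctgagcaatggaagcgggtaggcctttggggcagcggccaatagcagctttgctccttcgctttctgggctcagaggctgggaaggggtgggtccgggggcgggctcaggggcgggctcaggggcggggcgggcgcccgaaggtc
Ldha (chr7:46845554-46845853): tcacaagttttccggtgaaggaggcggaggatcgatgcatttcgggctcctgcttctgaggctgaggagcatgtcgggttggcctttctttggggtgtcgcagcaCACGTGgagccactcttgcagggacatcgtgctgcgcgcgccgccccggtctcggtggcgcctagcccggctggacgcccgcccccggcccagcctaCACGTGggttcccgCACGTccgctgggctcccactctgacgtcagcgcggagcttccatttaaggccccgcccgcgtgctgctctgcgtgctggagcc
The window of Ldha held 5 matches, that of Slc16a1 held 3, and those of Slc16a3 and Pgk1 held 2 each, where CACGTG counts as 2 because it reads as ACGTG on both strands. Windows were found for 33 of the 34 members, the exception being Slc2a3. ACGTG was present in at least 1 window of 19 of these 33 genes (57.6%), against 21.8% of all 27025 genes with a window and 29.5% of the 9224 that also averaged 1 CPM or more. Counted by window, 46.0% of the 50 windows of members held it, against 19.6% of all 32851 and 25.6% of the 11727 windows of genes averaging 1 CPM or more. The E-box CACGTG, which overlaps it, was found in 6 of the 33 genes (18.2%), against 8.09% of all genes and 11.8% of those averaging 1 CPM or more, and in 12% of the windows of members against 7.15% and 9.89%. These matches describe the letters of the windows, and no binding was measured here.

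Libraries held 1720065 to 3685285 counts, of which the members made up 0.684% to 1.38%. The ribosomal RNA rows Rn45s, Rn18s and Rn28s1 took 14.7% to 25% of the counts with IL-3 (both stages), 35% to 40.1% in TSLP immature libraries and 17.3% to 34.7% in mature ones. TSLP mature 1 stood apart: its 8 neutrophil markers summed to 799.8 CPM against 48.9 and 42.9 CPM in the other 2 libraries of its group, its 8 B lineage markers to 150.5 CPM against 16.1 and 18.4, and its counts differed from those 2 libraries by a chi-square of 40.8 and 51.4 per degree of freedom, where all other pairs within a group gave 2.08 to 13.1. Counts of calls are therefore given with and without it. The labelled cell type was checked with 10 basophil markers, all of them detected in every group, which summed to 43510 ± 1900 CPM in immature and 12720 ± 1540 CPM in mature cells grown with IL-3, and to 30220 ± 1540 and 10530 ± 1750 CPM with TSLP. The sums do not stand for each marker. By the test given below, 4 were called higher and 5 lower in mature cells with IL-3, and 3 higher and 4 lower with TSLP. Of all genes, 46.2% and 25.2% were called. Without TSLP mature 1, the counts with TSLP were 3 higher and 5 lower. The list holds Fcer1a, Itga2 and Cd200r3, which encode proteins the study gated or sorted on (FcεRIα, CD49b and CD200R3). Kit, in the mast cell list, encodes c-Kit, which the gate excluded. For these genes the check partly restates the sort. Mast cell markers summed to 0 to 8.86 CPM per library, and T and NK cell markers to 0 to 2.69 CPM. The sums of 7 monocyte and macrophage markers were higher in mature cells, at 600.2 against 102.1 CPM with IL-3 and 574.7 against 206.3 CPM with TSLP (group means). Of the 6 tested, 4 were called higher with IL-3 and 5 with TSLP, and 0 were called lower. With IL-3, 1 of the 6 had a negative log2 fold change. The counts were again 4 and 5 without TSLP mature 1. The sums of 4 early granule markers were lower in mature cells, at 154 against 2642 CPM with IL-3 and 105.1 against 1314 CPM with TSLP. Of the 3 tested, 2 were called lower in each culture, and 1 had a positive log2 fold change with TSLP. The calls were 3 and 2, all lower, without TSLP mature 1. Without TSLP mature 1, 7 of the 8 neutrophil markers were called lower in TSLP mature than in IL-3 mature cells, against 26.9% of all genes called. In bulk samples, fewer cells of a type and less RNA per cell cannot be told apart. Cell cycle genes moved with stage: all 15 on a list were lower in mature cells of both cultures, with sums of 2380 ± 63.8 CPM in immature and 113 ± 5.68 CPM in mature cells grown with IL-3, and of 1740 ± 28.6 and 286 ± 21.0 CPM with TSLP. The part of these marker levels in the results that follow was not tested, except where the value without TSLP mature 1 is given.

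Levels are CPM after TMM scaling of the library sizes, and a difference was called when the edgeR quasi-likelihood F test gave a Benjamini-Hochberg adjusted p under 0.05 over the 10861 genes tested. The summed level of the 34 members was 7805, 7213 and 7698 CPM in immature and 8143, 8147 and 7315 CPM in mature libraries of the IL-3 culture. In the TSLP culture the sums were 9484, 9844 and 10740 CPM in immature and 13190, 10630 and 11430 CPM in mature libraries. All 6 TSLP libraries lay above all 6 IL-3 libraries in this sum, and the highest value was that of TSLP mature 1. Before TMM scaling the order was not complete, since the share of raw counts was 0.939% for IL-3 immature 1 and 0.919% for TSLP immature 1. The 5 transporters together took 249.7 ± 7.58 CPM in immature and 639 ± 42.6 CPM in mature cells grown with IL-3, and 383 ± 39.7 and 624 ± 53.5 CPM in the same stages with TSLP. The 7 genes of the lower steps together took 3959 ± 137 CPM in immature and 3102 ± 321 CPM in mature cells grown with IL-3. With TSLP they took 5332 ± 421 and 5635 ± 827 CPM (mean ± SD, n = 3).

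**Figure D1:**
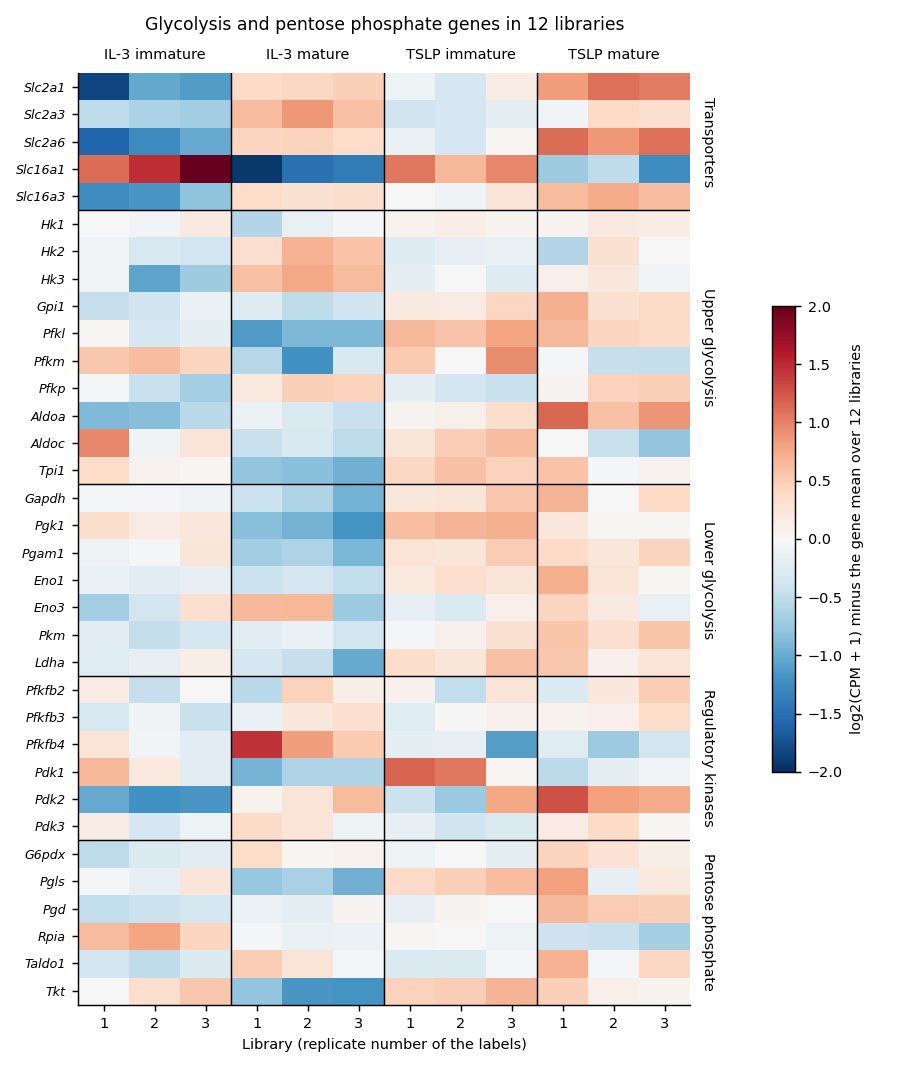
Levels of the 34 members (rows, grouped by role) in the 12 libraries (columns, grouped by cytokine and stage). Colour is log2(CPM + 1) minus the gene's mean over the 12 libraries, on a scale from -2 (blue) to 2 (red). The transporters other than Slc16a1 are low in the 3 IL-3 immature libraries, and most enzymes of the lower steps are low in the 3 IL-3 mature libraries.

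Of the 34 members, 23 differed between mature and immature cells of the IL-3 culture, 11 higher and 12 lower in mature cells, where 46.2% of all genes tested were called (24.1% higher, 22.1% lower). Their median log2 fold change was 0.16, against 0.064 over all genes. In the TSLP culture 13 members were called, 8 higher and 5 lower in mature cells, against a background of 25.2% (12.9% higher, 12.2% lower), with a median of 0.17 against 0.032. Between the cytokines, 17 members differed in mature cells, 15 higher and 2 lower with TSLP, where 24.3% of all genes were called (12.4% higher, 11.9% lower), with a median of 0.53 against 0.089. In immature cells 7 differed, 6 higher and 1 lower with TSLP, against 13.3% of all genes (7.38% higher, 5.9% lower), with a median of 0.32 against 0.04. The difference of the maturation effect between the cultures was called for 1 member, Tkt, where 4.18% of all genes were called (2.04% higher, 2.14% lower), and 13 members (38.2%) had an unadjusted p under 0.05 in that test, against 18.5% of all genes. Without TSLP mature 1 these were 12 members (35.3%) against 22.2%. With TSLP mature 1 left out the counts were 25 (12 higher, 13 lower), 16 (7 higher, 9 lower), 18 (15 higher, 3 lower), 10 (9 higher, 1 lower) and 2 (1 higher, 1 lower), against backgrounds of 51.5%, 31.4%, 26.9%, 20.4% and 6.56%.

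The count in the TSLP culture rested on single libraries: without TSLP immature 1 or TSLP immature 2 it was 6 in each case (2 higher, 4 lower), and without TSLP mature 3 it was 8 (5 higher, 3 lower). With the 3 ribosomal RNA rows left out before scaling, 12 members were called in that comparison (6 higher, 6 lower), and 19 between the cytokines in mature cells (14 higher, 5 lower). The 2 maturation comparisons share no library, and 11 members were called in both, which is 11 of the 23 called with IL-3 (47.8%) and 11 of the 13 called with TSLP (84.6%). Over all genes tested 2350 were called in both, 46.8% of those called with IL-3 and 86% of those called with TSLP, so that the shares of the members lay near the background. The directions were the same for all 11 members and for 2348 of the 2350 genes. With TSLP mature 1 left out, 15 members were called in both (of 25 and 16), against 49.4% and 81.2% over all genes. Aldoa and Pgd were called in the TSLP culture alone, with log2 fold changes of 0.47 ± 0.19 and 0.34 ± 0.16 in the IL-3 culture. Aldoa passed there too without TSLP mature 1 (0.43 ± 0.15, adjusted p = 0.0297), which left Pgd. Between mature and immature cells, the 3 libraries of one group lay outside the range of the other for 27 members with IL-3 (57.8% of all genes) and for 17 with TSLP (38.3%). Between the cytokines this held for 25 members in mature cells (38.6% of all genes) and for 20 in immature cells (38%).

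**Figure D2:**
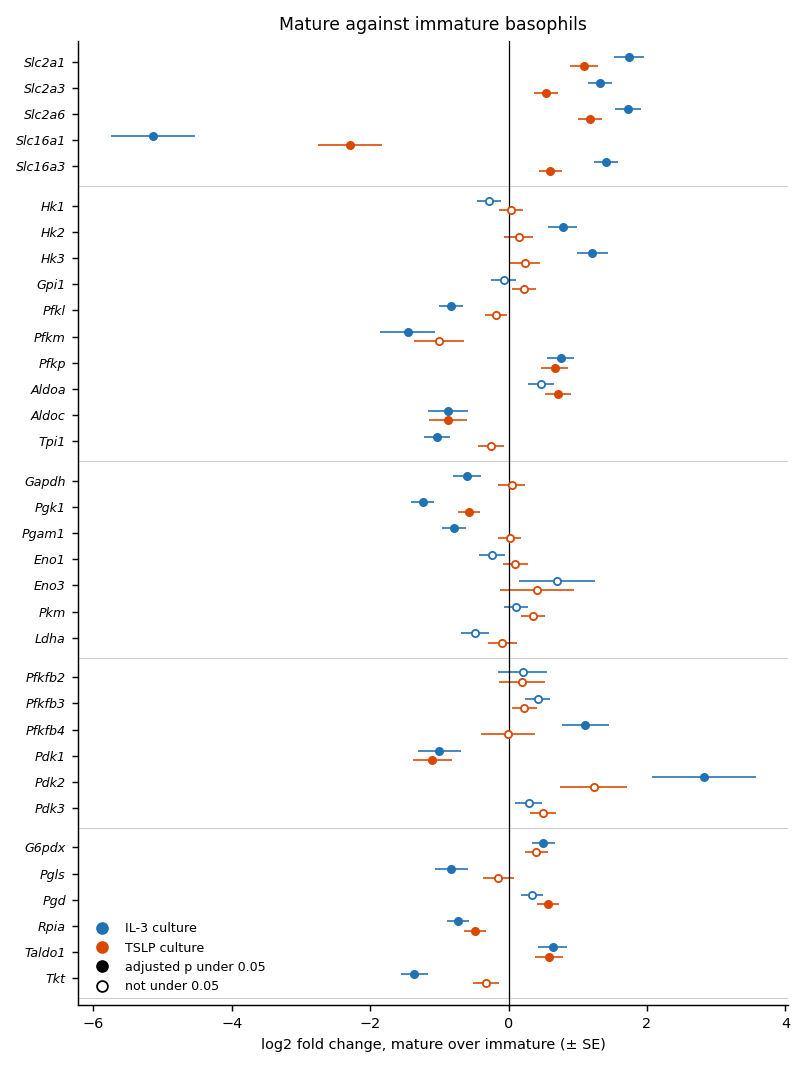
Log2 fold change of each member between mature and immature basophils (x axis, ± SE, where positive is higher in mature cells) in the IL-3 culture (blue) and the TSLP culture (orange). Filled points have an adjusted p under 0.05 and open points do not. All 5 transporters are filled in both cultures, and Slc16a1 lies alone at -5.14 and -2.29.

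The transporters were the one role group in which every member was called in both maturation comparisons, with 4 higher and 1 lower in mature cells. Over all genes tested, 21.6% were called in both. The counts were again 4 higher and 1 lower in each culture without TSLP mature 1, where 25.5% of all genes were called in both. Slc2a1 (chromosome 4, 119108711 to 119137983, GRCm38) encodes GLUT1, the glucose transporter of most dividing cells. Its level was 13.0, 23.6 and 22.1 CPM in immature and 65.2, 65.7 and 68.7 CPM in mature libraries grown with IL-3. With TSLP, Slc2a1 was at 45.5, 38.5 and 54.6 CPM in immature and 88.7, 107 and 101.1 CPM in mature libraries. Neither pair of stages overlapped, and each TSLP group lay above the IL-3 group of its stage. Slc2a1 rose with maturation by 3.33-fold in the IL-3 culture (log2 fold change 1.74 ± 0.21, adjusted p = 6.02e-06) and by 2.13-fold in the TSLP culture (log2 fold change 1.09 ± 0.20, adjusted p = 0.000716). It was higher with TSLP in immature cells (log2 fold change 1.21 ± 0.21, adjusted p = 0.00177) and in mature cells (log2 fold change 0.57 ± 0.20, adjusted p = 0.0433). The call in mature cells was lost in 15 of 22 alternatives, 10 of which left out 1 library, with log2 fold changes of 0.46 to 0.59 over all of them. The libraries whose removal ended it were IL-3 mature 1, 2 and 3, IL-3 immature 2 and 3, TSLP mature 2 and 3, and TSLP immature 1, 2 and 3.

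Slc2a6 encodes GLUT6, a transporter of intracellular membranes found in leukocytes. It was at 16.9, 21.3 and 25.7 CPM in immature and 71.3, 72.2 and 68.7 CPM in mature libraries grown with IL-3. With TSLP, Slc2a6 was at 47.9, 41.6 and 54.6 CPM in immature and 116, 96.9 and 114 CPM in mature libraries. It rose with maturation in both cultures (log2 fold change 1.72 ± 0.19, adjusted p = 1.87e-06 with IL-3, and 1.18 ± 0.18, adjusted p = 0.000128 with TSLP) and was higher with TSLP at both stages (1.16 ± 0.19, adjusted p = 0.000949 in immature and 0.62 ± 0.17, adjusted p = 0.0168 in mature cells). The call in mature cells was lost without IL-3 mature 2, IL-3 mature 3 or TSLP mature 3, with log2 fold changes of 0.49 to 0.69 over all alternatives.

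Slc2a3 encodes GLUT3, a transporter with high affinity for glucose, and had the most counts of the group. Its level was 174, 159 and 152 CPM in immature and 384, 454 and 372 CPM in mature libraries grown with IL-3. With TSLP, Slc2a3 was at 188, 195 and 219 CPM in immature and 237, 325 and 312 CPM in mature libraries. It rose with maturation in the IL-3 culture (log2 fold change 1.32 ± 0.18, adjusted p = 1.51e-05). In the TSLP culture it was also higher in mature cells (log2 fold change 0.54 ± 0.17, adjusted p = 0.0317), a call that was lost in 15 of 22 alternatives and that stayed without TSLP mature 1. In mature cells it had the opposite sign to the other glucose transporters, lower with TSLP, which was not called (log2 fold change -0.47 ± 0.17, adjusted p = 0.0587) but passed in 15 of 22 alternatives, among them with the 3 ribosomal RNA rows left out (-0.55). It was -0.42 ± 0.16, adjusted p = 0.0553 without TSLP mature 1.

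The lactate transporters moved in opposite directions. Slc16a3 encodes MCT4, which is known to export lactate from glycolytic cells, and Slc16a1 encodes MCT1, which carries lactate and pyruvate either way. Slc16a3 was at 32.4, 34.1 and 44.2 CPM in immature and 100.3, 96.1 and 99.2 CPM in mature libraries grown with IL-3. With TSLP, Slc16a3 was at 78.5, 73.1 and 93.6 CPM in immature and 121, 131 and 120.4 CPM in mature libraries. It rose 2.66-fold with maturation in the IL-3 culture (log2 fold change 1.41 ± 0.17, adjusted p = 6.11e-06) and 1.52-fold in the TSLP culture (log2 fold change 0.60 ± 0.17, adjusted p = 0.0136, lost without a filter on low counts and without TSLP mature 2, TSLP immature 1 or TSLP immature 2, over all alternatives 0.47 to 0.61 with an adjusted p of up to 0.107), and it was higher with TSLP in immature cells (log2 fold change 1.14 ± 0.17, adjusted p = 0.00056). In mature cells the difference between the cytokines was 0.33 ± 0.16 (adjusted p = 0.154).

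Slc16a1 was at 7.25, 9.67 and 14.2 CPM in immature and 0, 0.363 and 0.449 CPM in mature libraries grown with IL-3. With TSLP, Slc16a1 was at 6.89, 5.06 and 6.44 CPM in immature and 1.34, 1.70 and 0.613 CPM in mature libraries. The 3 IL-3 mature libraries held 2 counts in all against 92 in the 3 IL-3 immature ones, a ratio of 41.7 (95% exact binomial interval 11.2 to 349, which covers counting error only). It fell in both cultures (log2 fold change -5.14 ± 0.61, adjusted p = 4.2e-06 with IL-3, and -2.29 ± 0.46, adjusted p = 0.00163 with TSLP). Between the cytokines in mature cells 13 counts stood against 2, a ratio of 4.82 (1.09 to 44), and that difference was not called (adjusted p = 0.076). The maturation effect of Slc16a1 differed between the cultures by 2.85 ± 0.90 on the log2 scale and that of Slc16a3 by -0.81 ± 0.24, neither of which passed (adjusted p = 0.086 and 0.0664). The difference of Slc16a3 did pass without TSLP mature 1 (-0.84).

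**Figure D3:**
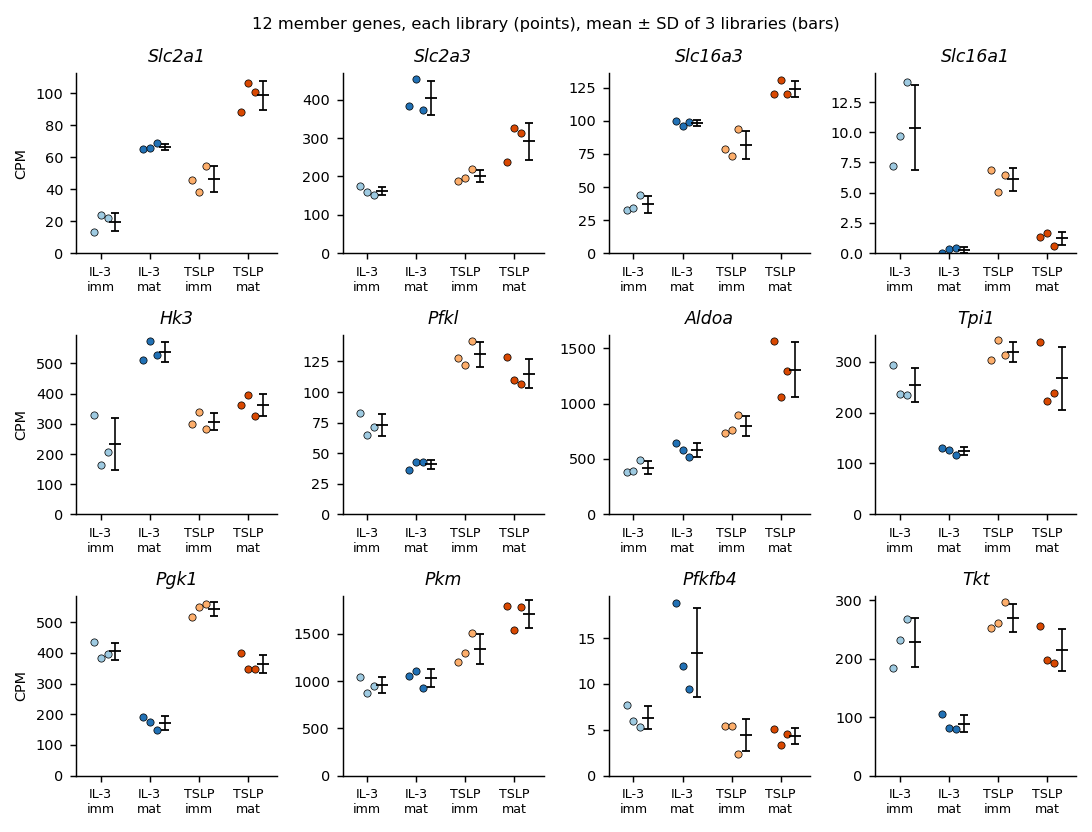
CPM of 12 members in each library (points) with the mean ± SD of 3 libraries (bars) in the 4 groups (imm, immature, and mat, mature). Every y axis starts at 0. Tkt is between 79.5 and 106 CPM in the IL-3 mature libraries and at 183.6 CPM or more in the other 9.

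Among the 10 enzymes of the upper steps, 7 were called between the stages of the IL-3 culture, 3 higher (Hk2, Hk3, Pfkp) and 4 lower (Pfkl, Pfkm, Aldoc, Tpi1) in mature cells. In the TSLP culture 3 were called, Pfkp and Aldoa higher and Aldoc lower. These are 70% and 30% of the 10, where 46.2% and 25.2% of all genes were called. With TSLP mature 1 left out, 8 (4 higher, 4 lower) and 5 (2 higher, 3 lower) were called, against 51.5% and 31.4% of all genes. The hexokinases, which trap glucose in the cell as its phosphate, rose with IL-3 maturation except for Hk1. Hk3, the form typical of leukocytes, was at 328, 163 and 206 CPM in immature and 511, 575 and 528 CPM in mature libraries grown with IL-3 (log2 fold change 1.21 ± 0.22, adjusted p = 0.000301), and at 301, 338 and 283 and 364, 397 and 327 CPM in the TSLP stages (log2 fold change 0.24 ± 0.22, adjusted p = 0.462). Its 3 IL-3 mature libraries were the highest of the 12. The difference between the cytokines in mature cells was -0.57 ± 0.22 (adjusted p = 0.0668), and it passed in 5 of 22 alternatives, among them without TSLP mature 1 (-0.66 ± 0.23, adjusted p = 0.0445). Hk2 was at 159, 132 and 125 CPM in immature and 205, 266 and 245 CPM in mature libraries grown with IL-3. With TSLP, Hk2 was at 137, 147 and 148 CPM in immature and 109.6, 203 and 165 CPM in mature libraries, and it rose with IL-3 maturation (log2 fold change 0.78 ± 0.21, adjusted p = 0.00565). Its lower level in TSLP mature than in IL-3 mature cells stood at the threshold (log2 fold change -0.58 ± 0.21, adjusted p = 0.05) and was lost in 7 of 22 alternatives, among them without TSLP mature 1 (-0.46 ± 0.17, adjusted p = 0.0595), whose 109.6 CPM was the lowest of its group. Hk1 was at 70.2 to 120.3 CPM in all libraries and was called in no comparison.

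The phosphofructokinases catalyse the committed step, and their 3 genes went separate ways. Pfkp, the platelet-type form with the most counts of the 3, was at 439.6, 333 and 282 CPM in immature and 519, 632 and 624 CPM in mature libraries grown with IL-3. With TSLP, Pfkp was at 401, 350.2 and 333 CPM in immature and 468, 625 and 627 CPM in mature libraries. It rose with maturation in both cultures (log2 fold change 0.75 ± 0.20, adjusted p = 0.00556 with IL-3, and 0.67 ± 0.20, adjusted p = 0.0213 with TSLP, lost in 9 of 22 alternatives) and the difference between the cytokines was 0.041 ± 0.20 in immature and -0.045 ± 0.20 in mature cells. Pfkl (chromosome 10, 77986947 to 78010083), the liver-type form, was at 82.6, 64.6 and 71.5 CPM in immature and 36.5, 43.2 and 43.1 CPM in mature libraries grown with IL-3. With TSLP, Pfkl was at 128.1, 122 and 142 CPM in immature and 129, 109.9 and 106 CPM in mature libraries. All 6 TSLP libraries lay above all 6 IL-3 libraries. Pfkl was 2.81-fold higher with TSLP in mature cells (log2 fold change 1.49 ± 0.17, adjusted p = 6.7e-05) and 1.80-fold higher in immature cells (log2 fold change 0.85 ± 0.16, adjusted p = 0.00343), and it fell with maturation in the IL-3 culture (log2 fold change -0.83 ± 0.17, adjusted p = 0.000873), while the difference in the TSLP culture was -0.18 ± 0.16 (adjusted p = 0.44). Pfkm, the muscle-type form, was low, at 7.25, 7.68 and 6.59 CPM in immature and 2.84, 1.45 and 3.59 CPM in mature libraries grown with IL-3 (log2 fold change -1.46 ± 0.40, adjusted p = 0.00732), and at 7.19, 4.67 and 9.83 and 4.57, 3.11 and 3.06 CPM in the TSLP stages (log2 fold change -1.01 ± 0.36, adjusted p = 0.0522). The IL-3 call was lost after thinning to the smallest total (-0.92, adjusted p = 0.178). The TSLP value passed in 8 of 22 alternatives, among them without TSLP mature 1 (-1.32 ± 0.40, adjusted p = 0.0201).

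Aldolase cuts the hexose, and Aldoa held nearly all of its counts. Aldoa was at 380.2, 390 and 487 CPM in immature and 648, 577 and 519.6 CPM in mature libraries grown with IL-3. With TSLP, Aldoa was at 733, 758 and 897 CPM in immature and 1563, 1063 and 1296 CPM in mature libraries, so that the groups did not overlap in any of the 4 comparisons. It was higher with TSLP in both stages (log2 fold change 1.17 ± 0.19, adjusted p = 0.000931 in mature; 0.93 ± 0.19, adjusted p = 0.00551 in immature cells) and rose with maturation in the TSLP culture (log2 fold change 0.72 ± 0.19, adjusted p = 0.0117, lost without TSLP immature 1 or TSLP immature 2, over all alternatives 0.47 to 0.79 with an adjusted p of up to 0.0922, and without TSLP mature 1 0.47 ± 0.17, adjusted p = 0.0433). In the IL-3 culture the value was 0.47 ± 0.19 (adjusted p = 0.0536). Aldoc was at 35.3, 16.8 and 21.4 CPM in immature and 12.8, 14.2 and 12.1 CPM in mature libraries grown with IL-3. With TSLP, Aldoc was at 21.3, 25.3 and 27.8 CPM in immature and 17.7, 12.7 and 9.80 CPM in mature libraries. It fell in both cultures (-0.88 ± 0.28, adjusted p = 0.0188 with IL-3, and -0.87 ± 0.27, adjusted p = 0.0267 with TSLP), with the first call lost without IL-3 mature 1, IL-3 mature 3 or IL-3 immature 1, and the second without TSLP mature 2, TSLP mature 3, TSLP immature 2 or TSLP immature 3. Over all alternatives the first was -1.15 to -0.57 with an adjusted p of up to 0.0951 and the second -1.22 to -0.75 with an adjusted p of up to 0.0808. Tpi1, which interconverts the triose phosphates, was at 293, 237 and 234 CPM in immature and 131, 127 and 116 CPM in mature libraries grown with IL-3. With TSLP, Tpi1 was at 302, 342 and 313 CPM in immature and 339, 223 and 239 CPM in mature libraries. Its IL-3 mature libraries lay below all other 9. Tpi1 fell with IL-3 maturation (log2 fold change -1.03 ± 0.19, adjusted p = 0.000324) and was higher with TSLP in mature cells (log2 fold change 1.1 ± 0.19, adjusted p = 0.00114). In the TSLP culture the stages differed by -0.26 ± 0.18 (adjusted p = 0.339), and without TSLP mature 1 by -0.56 ± 0.16, adjusted p = 0.0144. Gpi1, the isomerase before phosphofructokinase, was higher with TSLP in mature cells (log2 fold change 0.87 ± 0.18, adjusted p = 0.00325) and in immature cells (log2 fold change 0.58 ± 0.18, adjusted p = 0.0418), the latter lost in 17 of 22 alternatives.

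Among the enzymes of the lower steps, most calls fell between the cytokines in mature cells. In mature cells 6 of the 7 genes were higher with TSLP (all but Eno3), and in immature cells none was called, although all 7 had positive log2 fold changes of 0.056 to 0.49. These are 85.7% and 0% of the 7, where 24.3% and 13.3% of all genes were called. With TSLP mature 1 left out, 6 were called in mature cells and 2 in immature cells, against 26.9% and 20.4% of all genes. Whether the cytokine effect differs between the stages is asked by the test of the maturation effect between the cultures. That test called 0 of the 7, with or without TSLP mature 1, where 4.18% and 6.56% of all genes were called. A larger effect in mature cells was thus not shown for any of them. Between the stages of the IL-3 culture, Pgk1, Pgam1 and Gapdh were lower in mature cells and none was higher, and in the TSLP culture Pgk1 alone was called, also lower. Between the stages 42.9% and 14.3% of the 7 were thus called, against 46.2% and 25.2% of all genes. These comparisons share the IL-3 mature or TSLP mature libraries with those between the cytokines, so that they are not independent of each other. Of the 15 cell cycle genes, 12 were also higher with TSLP in mature cells (9 without TSLP mature 1), and the part of that difference in the levels of the lower steps was not tested.

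Pgk1 (chromosome X, 106187100 to 106203699) encodes phosphoglycerate kinase, the first enzyme of glycolysis to return ATP. It was at 436, 384 and 395 CPM in immature and 190, 176 and 148 CPM in mature libraries grown with IL-3. With TSLP, Pgk1 was at 518, 551 and 560.1 CPM in immature and 398, 347 and 349 CPM in mature libraries. No 2 of the groups compared overlapped, with TSLP immature highest and IL-3 mature lowest. Pgk1 fell 2.36-fold with IL-3 maturation (log2 fold change -1.24 ± 0.17, adjusted p = 1.51e-05) and 1.49-fold with TSLP maturation (log2 fold change -0.57 ± 0.16, adjusted p = 0.016), and it was 2.12-fold higher with TSLP in mature cells (log2 fold change 1.09 ± 0.17, adjusted p = 0.000525). Pgam1, the mutase that follows it, fell with IL-3 maturation (log2 fold change -0.79 ± 0.17, adjusted p = 0.00128) and was higher with TSLP in mature cells (log2 fold change 1.1 ± 0.17, adjusted p = 0.000573), with a log2 fold change of 0.014 ± 0.17 between the TSLP stages. Gapdh, which oxidises the triose phosphate and yields NADH, was at 1044, 1037 and 1013 CPM in immature and 787, 696 and 552 CPM in mature libraries grown with IL-3. With TSLP, Gapdh was at 1238, 1255 and 1531 CPM in immature and 1688, 1069 and 1388 CPM in mature libraries. It fell with IL-3 maturation (log2 fold change -0.60 ± 0.20, adjusted p = 0.0213, lost without IL-3 mature 3 at adjusted p = 0.0794) and was higher with TSLP in mature cells (log2 fold change 1.03 ± 0.20, adjusted p = 0.00252).

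Pkm, pyruvate kinase, had the most counts of all members. It was at 1042, 875 and 952 CPM in immature and 1053, 1111 and 931 CPM in mature libraries grown with IL-3. With TSLP, Pkm was at 1199, 1299 and 1509 CPM in immature and 1793, 1538 and 1788 CPM in mature libraries. The TSLP group lay above the IL-3 group at each stage, and the difference was called in mature cells (log2 fold change 0.73 ± 0.17, adjusted p = 0.0075, lost without IL-3 mature 3 at adjusted p = 0.0531) and not in immature cells (log2 fold change 0.48 ± 0.17, adjusted p = 0.0744). Between the stages it was 0.11 ± 0.17 with IL-3 and 0.35 ± 0.17 with TSLP, neither called. Eno1, enolase, was at 1029, 972 and 1005 CPM in immature and 839, 893 and 806 CPM in mature libraries grown with IL-3. With TSLP, Eno1 was at 1297, 1436 and 1344 CPM in immature and 1858, 1349 and 1158 CPM in mature libraries. The difference between the cytokines was called in mature cells (log2 fold change 0.78 ± 0.19, adjusted p = 0.00762), though not without IL-3 mature 3 (adjusted p = 0.0535). Without TSLP mature 1, the highest library of the 12, it was 0.48 ± 0.15, adjusted p = 0.0251. Ldha, which turns pyruvate into lactate, was higher with TSLP in mature cells (log2 fold change 0.89 ± 0.21, adjusted p = 0.00657, lost without IL-3 mature 3 at adjusted p = 0.0516), and its log2 fold change with IL-3 maturation was -0.49 ± 0.20 (adjusted p = 0.0618), a value that passed in 12 of 22 alternatives. Eno3, the muscle form, stayed at 0.898 to 3.99 CPM and was called nowhere.

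Reads were aligned to transcripts, and some members share sequence with other genes. Of the 50-base stretches of their annotated transcripts, 68.0% for Pgk1, 58.4% for Gapdh, 49.5% for Eno1, 41.5% for Pgam1 and 23.7% for Pkm also occur in another gene, mostly processed pseudogenes, so their counts are uncertain where the counting split such reads. In the table, 9 such rows of Gapdh held 14482 counts beside 40720 for Gapdh, and Eno1b held 4422 beside 42675 for Eno1. With these rows added to their gene, the difference between the cytokines in mature cells was 0.96 for Gapdh (adjusted p = 0.00378) and 0.79 for Eno1 (adjusted p = 0.00708). The other 4 members above 10% were Pfkfb2 (22.9%), Gpi1 (18.6%), Taldo1 (10.7%) and Ldha (10.4%), and 19 members shared no stretch. Exons of 10 members overlap exons on the opposite strand (Slc2a1, Hk1, Hk3, Gpi1, Pfkm, Pfkp, Aldoa, Tpi1, Pfkfb2 and G6pdx), and whether strand was used in counting is not given in the sources used here.

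**Figure D4:**
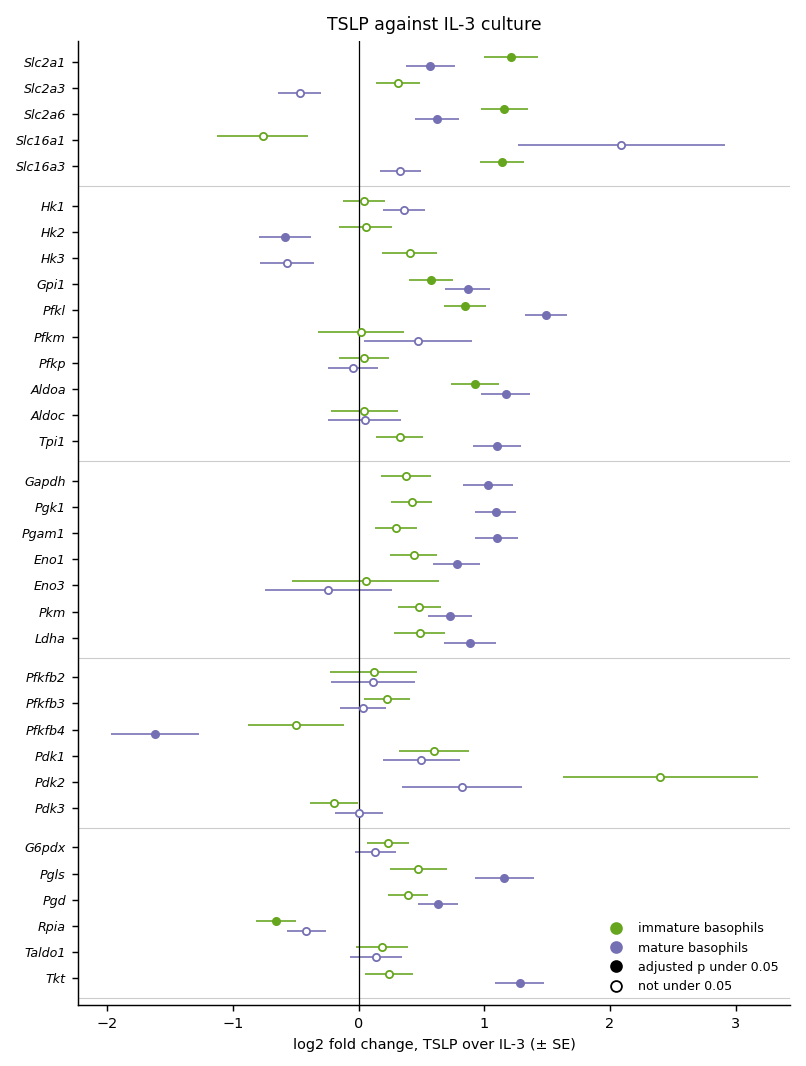
Log2 fold change of each member between the TSLP and the IL-3 culture (x axis, ± SE, where positive is higher with TSLP) in immature (green) and mature basophils (purple). Filled points have an adjusted p under 0.05 and open points do not. In the lower steps 6 of the 7 purple points are filled and to the right of 0, and none of the green points is filled.

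Of the 6 regulatory kinases, 3 were called between the IL-3 stages and 1 between the TSLP stages. These shares (50% and 16.7%) lay near or below those of all genes (46.2% and 25.2%). The counts were again 3 and 1 without TSLP mature 1, against 51.5% and 31.4% of all genes. The PFKFB enzymes make and remove the allosteric activator of phosphofructokinase. Pfkfb3, the one with the most counts, was at 73.0, 86.8 and 66.9 CPM in immature and 82.6, 106 and 115 CPM in mature libraries grown with IL-3. With TSLP, Pfkfb3 was at 77.0, 92.2 and 96.6 CPM in immature and 95.6, 98.0 and 118 CPM in mature libraries, and it was called in no comparison. Pfkfb4 was low, at 7.73, 5.97 and 5.28 CPM in immature and 18.8, 11.97 and 9.43 CPM in mature libraries grown with IL-3. With TSLP, Pfkfb4 was at 5.39, 5.45 and 2.37 CPM in immature and 5.11, 3.39 and 4.60 CPM in mature libraries, with all 3 IL-3 mature libraries above the other 9. It rose with IL-3 maturation (log2 fold change 1.11 ± 0.34, adjusted p = 0.0145, lost after thinning and without IL-3 mature 1, IL-3 immature 2 or IL-3 immature 3, over all alternatives 0.77 to 1.26 with an adjusted p of up to 0.141) and was lower with TSLP in mature cells (log2 fold change -1.62 ± 0.35, adjusted p = 0.00428, lost after thinning, over all alternatives -1.86 to -1.21 with an adjusted p of up to 0.0609), while the TSLP stages differed by -0.011 ± 0.39. Pfkfb2 stayed at 5.67 to 12.6 CPM and was not called.

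The pyruvate dehydrogenase kinases switch off the entry of pyruvate into the mitochondrial cycle. Pdk1 was at 40.6, 29.0 and 21.4 CPM in immature and 12.8, 16.0 and 16.2 CPM in mature libraries grown with IL-3. With TSLP, Pdk1 was at 57.2, 53.3 and 25.8 CPM in immature and 17.2, 22.0 and 24.2 CPM in mature libraries, and it fell with maturation in both cultures (log2 fold change -1.0 ± 0.31, adjusted p = 0.0134 with IL-3, lost without IL-3 mature 1 or IL-3 immature 1, over all alternatives -1.25 to -0.79 with an adjusted p of up to 0.0661, and -1.1 ± 0.28, adjusted p = 0.00911 with TSLP). Pdk2 went the other way at a low level: the IL-3 immature libraries held 3 counts in all and the IL-3 mature ones 21, a ratio of 7.73 (95% exact binomial interval 2.31 to 40.5), which was called (adjusted p = 0.00596). It was at 1.20, 0.778 and 4.07 CPM in TSLP immature and 6.18, 4.24 and 3.98 in TSLP mature libraries, which was not called (adjusted p = 0.0758). Pdk3, the member of this family with the most counts, was at 40.1 to 70.9 CPM and was called in no comparison.

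Of the 6 genes of the pentose phosphate pathway, G6pdx and Taldo1 rose and Pgls, Rpia and Tkt fell with IL-3 maturation, Pgd and Taldo1 rose and Rpia fell with TSLP maturation, and Pgls, Pgd and Tkt were higher with TSLP in mature cells. In that order 83.3%, 50% and 50% of the 6 were called, against 46.2%, 25.2% and 24.3% of all genes. With TSLP mature 1 left out, 5 were called between the IL-3 stages (2 higher, 3 lower), 4 between the TSLP stages (1 higher, 3 lower) and 4 between the cytokines in mature cells (3 higher, 1 lower). All genes then gave 51.5%, 31.4% and 26.9%. G6pdx, the dehydrogenase that opens the oxidative arm, was at 69.6, 81.6 and 84.7 CPM in immature and 128, 102 and 104 CPM in mature libraries grown with IL-3 (log2 fold change 0.50 ± 0.17, adjusted p = 0.022, lost in 12 of 22 alternatives) and at 93.1, 98.4 and 86.5 and 137, 122 and 109 CPM in the TSLP stages (log2 fold change 0.40 ± 0.17, adjusted p = 0.0869). Pgd, the second NADPH-forming enzyme, was at 238, 249.5 and 262 CPM in immature and 311, 292 and 348 CPM in mature libraries grown with IL-3. With TSLP, Pgd was at 301, 350.2 and 336 CPM in immature and 524, 477 and 469.7 CPM in mature libraries, with no overlap between the stages of either culture. It was called with TSLP maturation (log2 fold change 0.57 ± 0.16, adjusted p = 0.0137, lost without a filter on low counts, after thinning, and without any 1 of the 3 TSLP immature libraries, over all alternatives 0.43 to 0.58 with an adjusted p of up to 0.125) and between the cytokines in mature cells (log2 fold change 0.63 ± 0.16, adjusted p = 0.01, lost without IL-3 mature 2 at adjusted p = 0.0799). Pgls, the lactonase between them, was at 41.5, 38.1 and 50.8 CPM in immature and 24.8, 26.8 and 21.6 CPM in mature libraries grown with IL-3. With TSLP, Pgls was at 56.0, 59.5 and 65.8 CPM in immature and 76.6, 37.9 and 49.0 CPM in mature libraries. It fell with IL-3 maturation (log2 fold change -0.83 ± 0.24, adjusted p = 0.00973) and was higher with TSLP in mature cells (log2 fold change 1.16 ± 0.24, adjusted p = 0.00319). The latter was 0.74 ± 0.19, adjusted p = 0.00807 without TSLP mature 1, the library with 76.6 CPM.

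Tkt (chromosome 14, 30548359 to 30574720) encodes transketolase, which together with transaldolase (Taldo1) moves carbon between pentose phosphates and glycolysis. It was at 184, 233 and 268 CPM in immature and 106, 81.6 and 79.5 CPM in mature libraries grown with IL-3. With TSLP, Tkt was at 252, 260.3 and 296 CPM in immature and 257, 198 and 192 CPM in mature libraries. The 3 IL-3 mature libraries lay below all other 9. Tkt fell 2.56-fold with IL-3 maturation (log2 fold change -1.36 ± 0.20, adjusted p = 3.53e-05), the TSLP stages differed by -0.32 ± 0.19 (adjusted p = 0.237), and it was 2.42-fold higher with TSLP in mature cells (log2 fold change 1.28 ± 0.20, adjusted p = 0.000558). It was the one member for which the difference between the cultures in the maturation effect was called (1.03 ± 0.27, adjusted p = 0.0435), a call that was lost in 11 of 22 alternatives, 8 of which leave out a library. Without TSLP mature 1, the library with the highest level of its group, the difference was 0.84 ± 0.24, adjusted p = 0.0477, and the TSLP stages then differed with a call as well (-0.56 ± 0.18, adjusted p = 0.0268). Taldo1, the most abundant gene of the pathway, was at 471, 432 and 508 CPM in immature and 867, 731 and 596 CPM in mature libraries grown with IL-3. With TSLP, Taldo1 was at 500, 504 and 603 CPM in immature and 994, 603 and 816 CPM in mature libraries. Its rise with maturation was called with IL-3 (log2 fold change 0.64 ± 0.21, adjusted p = 0.0187) but not without a filter on low counts or without IL-3 mature 1, IL-3 mature 2, IL-3 immature 1 or IL-3 immature 2 (over all alternatives 0.50 to 0.72 with an adjusted p of up to 0.101), and with TSLP (log2 fold change 0.59 ± 0.21, adjusted p = 0.0469) it was lost in 17 of 22 alternatives, among them without TSLP mature 1 (0.31 ± 0.18, adjusted p = 0.215). Rpia, the isomerase that forms ribose phosphate, was at 162, 180.1 and 140.4 CPM in immature and 100.7, 94.7 and 95.2 CPM in mature libraries grown with IL-3. With TSLP, Rpia was at 105, 104 and 96.6 CPM in immature and 77.1, 75.7 and 65.3 CPM in mature libraries. It was the only member called lower with TSLP in immature cells (log2 fold change -0.66 ± 0.16, adjusted p = 0.0124, lost without IL-3 immature 2 or TSLP immature 3, over all alternatives -0.78 to -0.60 with an adjusted p of up to 0.0636). In mature cells the difference was -0.41 ± 0.16 and was not called (adjusted p = 0.0673). It passed there in some alternatives, among them without TSLP mature 1 (-0.54 ± 0.16, adjusted p = 0.0211) and with the 3 ribosomal RNA rows left out (-0.50). Rpia fell with maturation in both cultures (-0.73 ± 0.16, adjusted p = 0.00122 with IL-3, and -0.49 ± 0.16, adjusted p = 0.0315 with TSLP, lost in 5 of 22 alternatives).

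Paralogues of a step were compared as counts per kilobase of annotated exon, as the share of each within its family (mean ± SD, n = 3, no test). Slc2a3 took 70.5% ± 6.19 of the glucose transporter signal in immature and 63.8% ± 2.28 in mature cells grown with IL-3. With TSLP its share was 56.4% ± 2.61 in immature and 45.6% ± 4.56 in mature cells, where Slc2a6 reached 35.1% ± 5.15. The share of Slc16a1 within the lactate transporters went from 22.5% ± 3.13 to 0.290% ± 0.250 between the stages of the IL-3 culture and from 7.35% ± 0.980 to 1.01% ± 0.430 in the TSLP culture. Hk3 was the main hexokinase in all groups, at 61.9% ± 6.79 to 74.8% ± 1.96, and Pfkp the main phosphofructokinase. Pfkl took 7.51% ± 0.0900 of the phosphofructokinase signal in IL-3 mature cells against 19.5% ± 2.61 in immature ones. With TSLP, Pfkl took 29.4% ± 2.87 in immature and 19.3% ± 4.30 in mature cells. Pdk3 held 68.4% to 87.2% of the pyruvate dehydrogenase kinase signal, Aldoa at least 94.3% of the aldolase signal, and Eno1 at least 99.4% of the enolase signal, as group means.

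**Figure D5:**
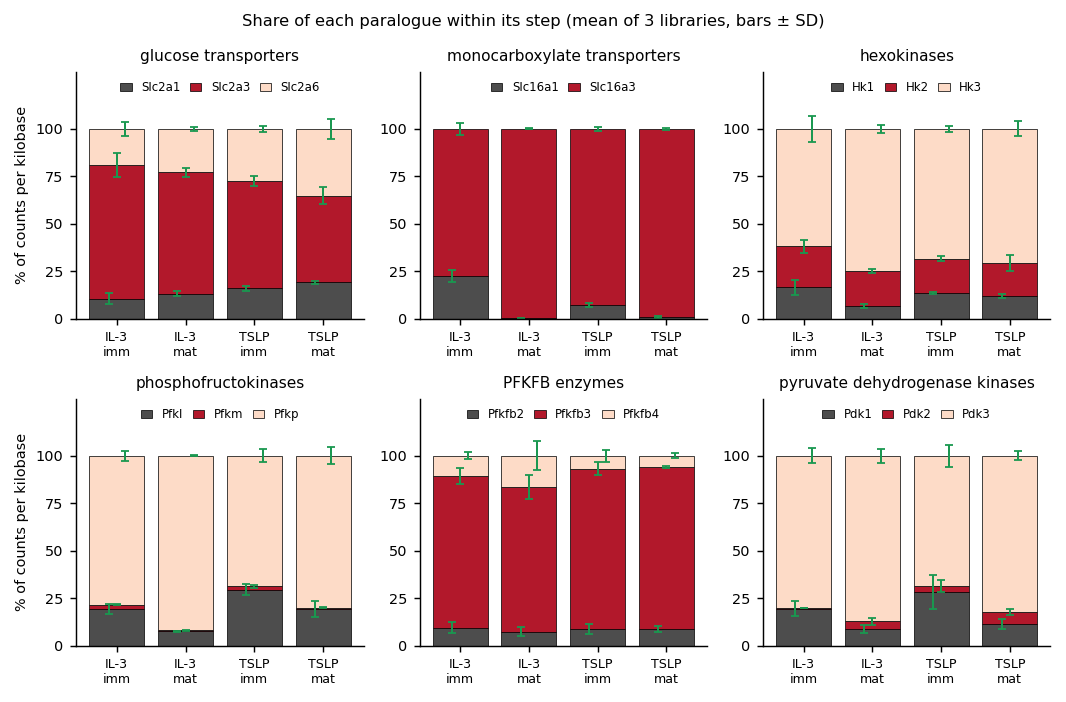
Share of each paralogue within its step, as percent of the family's counts per kilobase (y axis), in the 4 groups (x axis, imm for immature and mat for mature), where bars are stacked means of 3 libraries and green marks are ± SD of each share. The share of Slc16a1 is near 0 in both mature groups, and that of Pfkl is smallest in IL-3 mature cells, at 7.51%.

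The pyruvate dehydrogenase complex and the tricarboxylic acid (TCA) cycle, which receive what glycolysis delivers, gave 31 tested genes of a list of 33. Between the IL-3 stages 2 were higher and 15 lower in mature cells (median log2 fold change -0.51), and between the TSLP stages 1 was higher and 4 lower (median -0.13). In mature cells 11 were higher and 1 lower with TSLP (median 0.49), and in immature cells 2 were lower. In that order 54.8%, 16.1%, 38.7% and 6.45% of the 31 were called, against 46.2%, 25.2%, 24.3% and 13.3% of all genes. Leaving out TSLP mature 1, the counts were 3 higher and 20 lower, 1 higher and 8 lower, 7 higher and 2 lower, and 1 higher and 2 lower. All genes then gave 51.5%, 31.4%, 26.9% and 20.4%. Idh2, the mitochondrial NADP-dependent isocitrate dehydrogenase, was at 19.8, 17.6 and 30.0 CPM in immature and 2.48, 3.27 and 0.898 CPM in mature libraries grown with IL-3. With TSLP, Idh2 was at 14.7, 13.6 and 16.9 CPM in immature and 9.13, 8.19 and 7.66 CPM in mature libraries, and fell with maturation by more with IL-3 (log2 fold change -3.27 ± 0.34, adjusted p = 1.2e-06) than with TSLP (log2 fold change -0.85 ± 0.28, adjusted p = 0.0342; difference 2.42 ± 0.46, adjusted p = 0.00669). Idh3a, a subunit of the NAD-dependent enzyme, did likewise (-2.55 with IL-3 and -1.18 with TSLP; difference 1.37 ± 0.37, adjusted p = 0.0473). Mpc2, a subunit of the mitochondrial pyruvate carrier, and Dlst were the 2 that rose with IL-3 maturation (log2 fold change 1.48 ± 0.27, adjusted p = 0.000324; 0.53 ± 0.16, adjusted p = 0.0133).

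Other genes of carbohydrate handling (gluconeogenesis, further transporters and isoforms) were mostly below the filter on low counts, with 14 of 39 listed tested. Between the IL-3 stages 1 was higher and 4 lower, between the TSLP stages 1 higher and 2 lower, and with TSLP 3 were higher in mature and 2 in immature cells. The shares called were 35.7%, 21.4%, 21.4% and 14.3%, near or below the 46.2%, 25.2%, 24.3% and 13.3% of all genes. Without TSLP mature 1 the counts were 1 and 4, 1 and 3, 2 and 0, and 2 and 1 (higher and lower). All genes then gave 51.5%, 31.4%, 26.9% and 20.4%. G6pc3, the glucose phosphatase found outside the liver and needed by neutrophils, fell with maturation (log2 fold change -2.82 ± 0.34, adjusted p = 4.37e-06 with IL-3, and -0.94 ± 0.30, adjusted p = 0.0283 with TSLP), and the 2 effects differed by 1.88 ± 0.46 (adjusted p = 0.0301). No gene of the list passed that test without TSLP mature 1. Among 24 tested regulators of these pathways, 11 were higher and 2 lower in mature cells of the IL-3 culture, and 5 higher and 1 lower in those of the TSLP culture. With TSLP 7 were higher and 1 lower in mature cells, and 8 were higher in immature cells. That is 54.2%, 25%, 33.3% and 33.3% of the 24, against 46.2%, 25.2%, 24.3% and 13.3% of all genes. The share between the TSLP stages thus lay at the background. Leaving out TSLP mature 1 gave 11 and 2, 5 and 2, 8 and 1, and 10 and 0 (higher and lower). Txnip, which restrains glucose uptake, rose with maturation in both cultures (log2 fold change 1.61 ± 0.17, adjusted p = 9.28e-07 with IL-3, and 1.25 ± 0.16, adjusted p = 3.56e-05 with TSLP). Myc, a transcription factor of growing cells, was at 7.73, 15.9 and 18.1 CPM in immature and 6.74, 7.62 and 4.94 CPM in mature libraries grown with IL-3. With TSLP, Myc was at 28.7, 28.0 and 32.5 CPM in immature and 29.0, 18.4 and 20.2 CPM in mature libraries, and was higher with TSLP in immature (log2 fold change 1.06 ± 0.27, adjusted p = 0.0169) and in mature cells (log2 fold change 1.79 ± 0.30, adjusted p = 0.00103). Of 18 tested HIF targets outside the pathway, 9 were higher and 3 lower with IL-3 maturation and 6 higher and 3 lower with TSLP maturation, while 5 were higher and 2 lower with TSLP in mature and 3 higher and 1 lower in immature cells. These are 66.7%, 50%, 38.9% and 22.2% of the 18, against 46.2%, 25.2%, 24.3% and 13.3% of all genes. Without TSLP mature 1 the counts were 9 and 3, 4 and 4, 2 and 2, and 4 and 2 (higher and lower). The counts of HIF targets higher in TSLP mature cells thus rested partly on that library. Among them Ddit4 rose in mature cells of both cultures (log2 fold change 2.41 ± 0.23, adjusted p = 4.93e-07 with IL-3, and 1.40 ± 0.23, adjusted p = 0.000319 with TSLP), and Higd1a was lower with TSLP in mature (log2 fold change -2.33 ± 0.27, adjusted p = 7.16e-05) and immature cells (-1.36 ± 0.25, adjusted p = 0.00272). Tfrc, the transferrin receptor, fell with maturation (log2 fold change -4.14 ± 0.23, adjusted p = 1.3e-09 with IL-3, and -1.66 ± 0.17, adjusted p = 2.98e-06 with TSLP).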

How the data were processed

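Polyadenylated RNA of sorted BMBAs was sequenced by the authors on an Ion Proton instrument after whole-transcriptome PCR. Cutadapt trimmed the reads and Bowtie2 placed them on reference RNA (GRCm38), per the study's methods; the submitters' processing notes name mm10 and GRCm39. The deposited values are raw counts per gene symbol. How reads with several hits or antisense reads were treated is not given in the sources used. Reads were not said to carry molecular identifiers. 1 unnamed row, 50% of each column and equal to the sum of all others, was left out. All 12 columns were mapped to a sample, and 3 libraries form each group.

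The counts were tested in edgeR 4.0.16 (R 4.3.3) with a quasi-likelihood F test, TMM scaling and filterByExpr (minimum count 10, minimum total 15), in 1 fit of 4 group means over 12 libraries without a block. The 10861 genes tested held 99.5% to 99.7% of the counts, which ran from 1720065 to 3685285 per library. Biological variation (common coefficient) stood at 20.4%. Adjustment of p values followed Benjamini and Hochberg, over every gene tested, and log2 fold changes carry a standard error. The fit was first tested on simulated data with known changes between the IL-3 stages. It recovered 35.4% of 2-fold and 89.9% of 4-fold changes, and 5.38% of the calls were false. Most 2-fold changes were thus missed in the simulation. It changed 96 genes by 2-fold and 99 by 4-fold among 10453, whereas 46.2% of the genes were called between the IL-3 stages of the data. The adjusted threshold is less strict where more genes change, so the recovery in the data may differ and was not measured. A gene not called may still differ. DESeq2 1.42.0 served as an alternative. Positions, exon lengths and shared 50-base stretches come from GENCODE M21 (GRCm38).

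The members and gene lists were chosen with earlier results of these data known. Values in every library are given for up to 4 called members per direction and pairwise comparison, taken by size of change, for members called in the interaction, and for the member with the most counts in each role group; from the other lists at most 3 called genes per direction and comparison are named. Other members given with values, and the library left out of the list counts, were chosen after the values were seen. Leaving out the 3 ribosomal RNA rows and adding near-identical rows were chosen after seeing the data.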

Additional observations from a re-analysis of the deposited data

Results flagged for a closer look

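Tkt was singled out because its maturation effect differed between the cultures by a test of the difference itself. The difference, mature minus immature with TSLP minus the same with IL-3, came to a log2 value of 1.03 ± 0.27 (adjusted p = 0.0435, edgeR quasi-likelihood F test), where the effect was -1.36 ± 0.20 with IL-3 (lower in mature cells with no overlap of the 3 and 3 libraries) and -0.32 ± 0.19 with TSLP. It lay between 0.84 and 1.17 in all 22 alternatives. The adjusted p was 0.00781 to 0.139, and it passed the threshold in 11 of them. It did not pass without IL-3 mature 2 (0.96), IL-3 mature 3 (0.94), IL-3 immature 2 (1.00), IL-3 immature 3 (0.89), TSLP mature 2 (1.09), TSLP immature 1 (0.98), TSLP immature 2 (1.00) or TSLP immature 3 (1.07). Nor did it pass with TMM on the uncalled genes, after thinning to the smallest total, or with the 3 ribosomal RNA rows left out. In the last of these settings 1 member was called, Slc16a3, with the opposite sign (-0.86).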

How the results depend on the processing

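No called member changed direction in any of the 22 alternatives, of which 20 were planned and 2 were chosen after seeing the data. Of the 61 calls, 58 were kept with DESeq2 size factors, 57 with TMM on the uncalled genes, 56 without Rn45s, 56 without the 3 ribosomal RNA rows, 60 with near-identical rows added, 61 with the DESeq2 Wald test, 51 without a filter, 51 with a filter at 10 CPM in 3 libraries (29 members tested, so that calls of low members were lost by construction) and 48 after thinning to the smallest total (32 members tested). Leaving out 1 library kept 47 to 59. The count in the TSLP culture was 13, and it was 8 without a filter, 8 after thinning and 6 to 16 when 1 library was left out. For the difference between the cultures, 1 member was called, 0 with TMM on uncalled genes, 5 with the DESeq2 Wald test (3 higher, 2 lower), 3 with the 10 CPM filter, 0 after thinning and 0 to 2 when 1 library was left out; the cause was not tested. Leaving out 1 library gave 20 to 25 members between the IL-3 stages, 12 to 20 between the cytokines in mature and 5 to 10 in immature cells. The filter at 10 CPM moved the median of all genes by -0.113 between the IL-3 stages and by -0.105 between the TSLP stages. CPM after TMM gave the same 34 members. With the replicate number as a block, all 61 calls were kept and the counts were 24, 13, 17, 7 and 1, with Aldoa gained between the IL-3 stages (0.48). Whether the numbers pair the libraries stayed undecided. Deviations of same-numbered libraries correlated at -0.0769 to 0.388, with 7 of 18 pairs above 0.1. For 8 of 12 libraries the deviation correlated best with those of their own number, a share that was not tested. Depth limits the members with the lowest levels (Eno3, Pdk2, Pfkm, Pfkfb2, Slc16a1 and Pfkfb4).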
